A study of Homo sapiens with 23 samples.

Results

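HepG2 cells that had been co-cultured with Caco-2 cells were compared with mono-cultured HepG2 cells, in both cases without FFAs. HepG2 is an established line from a human hepatocellular carcinoma, and Caco-2 is an established line from a colorectal carcinoma that is used to mimic the gut. The comparison rests on 6 of the 23 mRNA-seq libraries of the series, chosen by their labels alone: 3 libraries of co-cultured control HepG2 cells (HepG2_CoCul_Cont) and 3 of mono-cultured control HepG2 cells (HepG2_MonoCul_Cont). Both groups were grown in the iGLC platform, a chip of silicone rubber in which a pump circulates medium through 2 cell chambers. In co-culture the other chamber held Caco-2 cells, and in mono-culture it held HepG2 cells as well. Other HepG2 and Caco-2 groups received 1 mM FFAs, a mixture of palmitic and oleic acid, for 1 day, and there are control Caco-2 groups as well. The labels describe the medium of this step as holding 0.5% serum, and the methods describe it as serum-free with 1% BSA. Neither the labels nor the methods say which libraries shared a chip or a day, so the p-values measure the spread between these libraries, which may be partly technical. The comparison asks which HepG2 transcripts differ when the medium is shared with gut cells and no lipid is added.

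Hepatocytes are the source of hepcidin, the peptide hormone encoded by HAMP that closes the iron exporter ferroportin on gut and macrophage cells. HAMP transcription is driven by bone morphogenetic proteins (BMPs), which bind receptor kinases that phosphorylate SMAD1, SMAD5 and SMAD9 and bring them with SMAD4 to the promoters of target genes. Inflammation adds to this drive through interleukin-6 and STAT3. The same BMP-SMAD signal switches on ID1, ID2 and ID3, which encode inhibitors of basic helix-loop-helix factors, and the feedback inhibitors SMAD6 and SMAD7.

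The 250 bases ahead of the RefSeq start are shown for the 3 genes of this pathway with the largest differences between the cultures, since they differ in the 2 sequence motifs searched. The windows are chr19:35282278-35282527 (+ strand) for HAMP, chr20:31605039-31605288 (+ strand) for ID1 and chr1:23559502-23559751 (- strand) for ID3, in GRCh38.p14. Capitals mark GGCGCC, a core of BMP response elements, and TTCNNNGAA, a STAT-type site. Both motifs read the same on either strand.
HAMP: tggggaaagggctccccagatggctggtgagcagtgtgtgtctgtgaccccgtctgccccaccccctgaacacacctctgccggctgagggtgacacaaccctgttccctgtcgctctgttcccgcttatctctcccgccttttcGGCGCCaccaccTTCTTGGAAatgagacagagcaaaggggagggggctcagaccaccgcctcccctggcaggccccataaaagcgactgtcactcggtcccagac
ID1: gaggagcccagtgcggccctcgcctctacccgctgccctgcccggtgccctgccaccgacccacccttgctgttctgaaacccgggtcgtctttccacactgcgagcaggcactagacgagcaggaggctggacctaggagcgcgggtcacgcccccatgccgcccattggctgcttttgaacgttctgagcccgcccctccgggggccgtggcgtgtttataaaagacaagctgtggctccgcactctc
ID3: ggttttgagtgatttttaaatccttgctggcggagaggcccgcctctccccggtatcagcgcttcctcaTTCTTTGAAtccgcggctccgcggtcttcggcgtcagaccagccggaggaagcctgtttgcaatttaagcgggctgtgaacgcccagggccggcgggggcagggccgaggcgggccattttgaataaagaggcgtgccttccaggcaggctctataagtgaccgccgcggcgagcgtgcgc
HAMP held GGCGCC from position -105 to -100 and TTCNNNGAA from -93 to -85, counted back from the start. ID3 held TTCNNNGAA from -181 to -173, and ID1 held neither motif in this window. GGCGCC was present in 16.4% and TTCNNNGAA in 6.57% of 35116 RefSeq windows of the same length, so neither match is rare, and the letters show no binding.

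The 6 control libraries had values above 0 TPM for 19259 to 21884 genes. TPM gives each transcript's share of all transcripts, corrected for length, so the number of reads is unknown. The libraries numbered 3 stood apart in both groups. MEP1A, a brush-border protease, was at 64.4, 64.5 and 0.68 TPM in co-cultured replicates 1 to 3 and at 55.2, 70.0 and 1.28 TPM in mono-cultured replicates 1 to 3. The labelled cell type was checked on its markers: all 14 HepG2 markers were above 100 TPM in all 6 libraries. Most of them, among them ALB, AFP and APOA1, were also above 100 TPM on average in mono-cultured control Caco-2 cells, so this level alone does not separate the lines. TF, FGA and FGB separated them, with mean levels of 6.99, 38.1 and 88.7 TPM in those Caco-2 cells and lowest levels of 5680, 999 and 1227 TPM in the 6 HepG2 libraries. Of 14 Caco-2 markers, 3 (CDX1, GPA33 and PHGR1) were listed at 0 in all 6 libraries, and CDX1 was at 0 in mono-cultured control Caco-2 cells as well. The 11 markers at no more than 1 TPM in mono-cultured HepG2 cells summed to 0.95, 2.73 and 2.25 TPM in co-cultured and 1.95, 1.22 and 0.46 TPM in mono-cultured replicates 1 to 3. These means were 0.329% and 0.201% of the level in mono-cultured control Caco-2 cells. The difference was 0.767 TPM (two-sided exact permutation test, p = 0.3, where 0.1 is the smallest possible). Summed over all 14 markers, the means were 236 ± 67.3 TPM in co-cultured and 274 ± 59.2 TPM in mono-cultured cells (SD, n = 3). That difference was -38.7 TPM (two-sided exact permutation test, p = 0.5). CDX2, which defines intestinal cells, was at 0.09 to 0.17 TPM in co-cultured HepG2 cells and at 0.02 to 0.49 TPM in mono-cultured ones.

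Genes were tested where the mean reached 1 TPM in either control group, which left 13849. The clearest difference was a higher level of HAMP and the ID genes in co-cultured cells, and the lower genes were led by ACSM3. No gene passed an adjusted p of 0.05 in limma's test on log2(TPM + 1), fitted to all 12 HepG2 libraries. That is 0% of the genes, and the smallest adjusted p was 0.0918, for HAMP, ID2 and ACSM3. At an unadjusted p under 0.05 there were 1070 genes, 7.73% of those tested. After removal of group means, same-numbered control libraries correlated at 0.468 for number 3 but only at 0.108 and 0.163 for numbers 1 and 2. With the replicate number as a block, 6 genes passed the adjusted threshold (0.0433%). ID1, HAMP, ID2, ID3 and PAQR8 were higher and CCDC142 was lower in co-cultured cells.

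**Figure D1:**
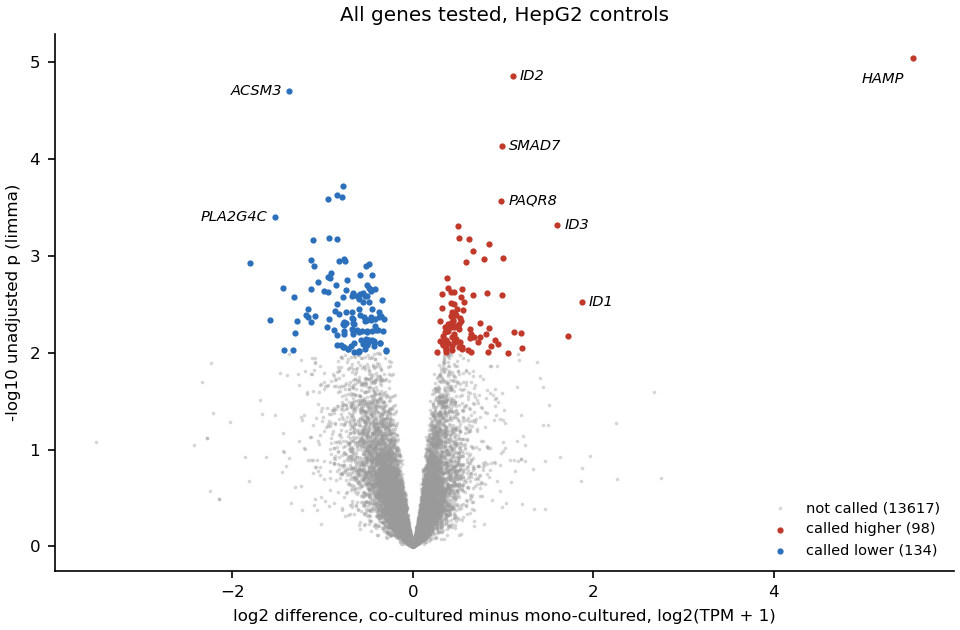
Each point is 1 of the 13849 genes tested in HepG2 controls. The x axis gives the log2 difference between co-cultured and mono-cultured cells on log2(TPM + 1), and the y axis -log10 of limma's unadjusted p. HAMP lies far to the right of all other genes at 5.54, and ID2, ACSM3 and SMAD7 follow it in height.

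Genes are described as called where they met 2 limits that the study set for mono- against co-culture, p below 0.01 without adjustment and a 1.2-fold change (0.263 on the log2 scale). Of all genes tested, 98 were called higher (0.708%) and 134 lower (0.968%) in co-cultured cells. With the replicate block, 229 were called higher (1.65%) and 356 lower (2.57%). Of the 232 genes called without the block, 224 were also called with it, and 38 were called in each of the 6 fits that left out 1 control library. Leaving out mono-cultured replicate 2 gave 90 called genes in all, 69 of them among the 232. Leaving out mono-cultured replicate 1 gave 142, with 98 of the 232, and leaving out mono-cultured replicate 3 gave 402, with 155 of the 232. The 3 co-cultured libraries lay above all 3 mono-cultured libraries for 1032 genes (7.45%) and below them for 1068 (7.71%). These shares over all genes tested are the background for the counts of each list below.

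BMP-SMAD targets showed the largest shift of any list examined. All 8 of the 10 listed targets that could be tested had a higher value in co-cultured cells, against 46.3% of all genes. Among these 8, 5 were called higher, against 0.708% of all genes, and 0 lower. Their median log2 difference was 1.04, against -0.02 over all genes tested. ID4 and ATOH8 stayed under 1 TPM in all 6 libraries and were not tested. The count was 5 called higher in the fit with the block as well. That HAMP, the ID genes and SMAD7 differ between cultures was known when this list was drawn up, so the count is a description of the group.

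HAMP (ENSG00000105697, chr19:35280716-35285143 in GRCh38) was at 84.9, 64.2 and 153 TPM in co-cultured replicates 1 to 3 and at 0.63, 1.45 and 1.14 TPM in mono-cultured ones. The groups were far apart, with the lowest co-cultured library well over an order of magnitude above the highest mono-cultured one. The means were 101 ± 46.4 and 1.07 ± 0.414 TPM (SD, n = 3), a 93.8-fold ratio. On the log2(TPM + 1) scale, which understates the ratio of a gene near 1 TPM, the difference was 5.54 ± 0.75 (SE). Its 95% interval was 3.91 to 7.17, and limma's adjusted p was 0.0918, or 0.0304 with the block. Fitted to only the 6 libraries compared, HAMP passed the adjusted threshold (limma, adjusted p = 0.00168). Leaving out 1 control library gave HAMP an adjusted p of 0.195 to 0.406 (limma).

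ID1 (ENSG00000125968, chr20:31605283-31606515) was at 230, 453 and 250 TPM in co-cultured and 64.9, 137 and 58.2 TPM in mono-cultured replicates 1 to 3. Replicate 2 was the highest library of its group in both cultures. The difference was 1.87 on the log2 scale, with an SE of 0.50 that dropped to 0.18 with the block, and the adjusted p went from 0.557 to 0.0141. ID3 (ENSG00000117318, chr1:23557926-23559501) shared this pattern: 77.5, 132 and 96.3 TPM against 27.9, 40.9 and 29.4 TPM, a log2 difference of 1.60 ± 0.33 (SE; adjusted p = 0.549, and 0.0318 with the block). For both genes the lowest co-cultured library was above the highest mono-cultured library.

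ID2 (ENSG00000115738, chr2:8678845-8684461) was steady in mono-cultured cells, at 68.2, 67.1 and 60.3 TPM, and was at 116, 135 and 180 TPM in co-cultured cells. Its log2 difference was 1.10 ± 0.16 (SE; adjusted p = 0.0918, and 0.0304 with the block). SMAD7 (ENSG00000101665, chr18:48919853-48950965), the inhibitory SMAD that blocks receptor signalling, was at 24.9, 22.9 and 25.0 TPM against 12.4, 9.59 and 13.7 TPM. Both groups were tight and did not overlap, and the log2 difference was 0.98 ± 0.16 (SE; adjusted p = 0.253, and 0.103 with the block).

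The 3 remaining targets were not called. BAMBI, a decoy receptor that is also a Wnt target, was at 53.6, 55.3 and 71.9 TPM in co-cultured and 37.7, 54.3 and 39.3 TPM in mono-cultured cells, so the groups overlapped. SMAD6, the second inhibitory SMAD, differed by 0.28 on the log2 scale (95% interval -0.16 to 0.73), and SMAD9, a receptor-regulated SMAD, by 0.06 (95% interval -0.32 to 0.44). Both were low, at 1.57 to 4.07 TPM in the 6 libraries, and the groups of SMAD6 did not overlap.

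**Figure D2:**
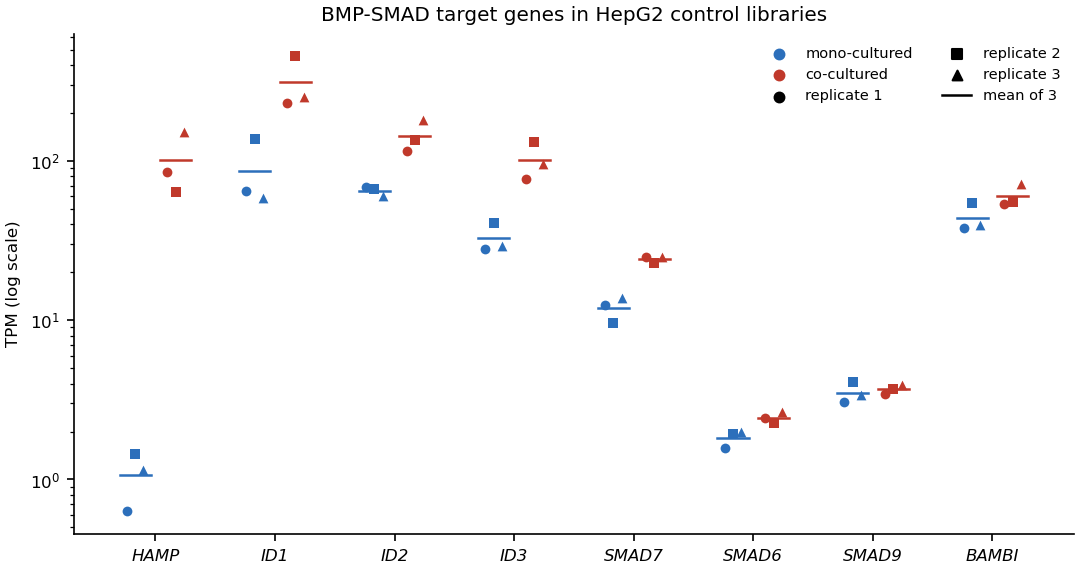
TPM on a log axis of the 8 tested BMP-SMAD targets in the 6 control HepG2 libraries, where points are libraries (shape gives the replicate number) and bars are means of 3. HAMP, ID1, ID2, ID3, SMAD7 and, at a low level, SMAD6 separate by culture, and BAMBI and SMAD9 overlap.

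The genes that carry the BMP signal were not called. Of 22 ligands, antagonists, receptors and transducers, 15 were tested, 7 higher and 8 lower, with a median of -0.02 and 0 called in either direction, also with the block. The 2 members of highest level were GDF15, a stress-induced ligand of the same superfamily, and FST, which encodes the activin and BMP antagonist follistatin. GDF15 was at 940, 1086 and 1622 TPM in co-cultured and 819, 979 and 782 TPM in mono-cultured cells (log2 difference 0.47 ± 0.36 SE). FST was at 489, 246 and 382 TPM against 646, 484 and 610 TPM (log2 difference -0.68 ± 0.58 SE), and the groups of both genes overlapped. FST was lower within each replicate number. A fit with the block within each treatment, added after seeing the data, passed 146 genes, 64 higher and 82 lower. FST was among these 146 genes (limma, adjusted p = 0.0271), as were SMAD7 (0.0206) and ACSM3 (0.00461).

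Ligand levels differed between the cell lines of the 2 chambers. BMP2 was at 0.05 to 0.42 TPM in the 6 control HepG2 libraries and at 14.5 to 26.4 TPM in the 5 control Caco-2 libraries. BMP7 was at 0.08 to 0.42 TPM in these HepG2 libraries and at 128 to 169 TPM in these Caco-2 libraries. BMP4 was present in both lines, at 88.8 to 207 and 123 to 169 TPM, and BMP6, the main iron-regulated ligand in liver, did not reach 1 TPM in either. These are transcript levels. Whether the proteins reached the HepG2 chamber, and their part in the HAMP and ID levels, was not tested. Control Caco-2 cells had 2 co-cultured and 3 mono-cultured libraries. ID1, ID2, ID3 and SMAD7 were higher there in both co-cultured libraries than in any mono-cultured one. The share of all Caco-2 genes that separate in this way was not computed, so this only describes these genes. There ID2 was at 297 and 291 TPM in co-culture against 199, 202 and 202 TPM in mono-culture. SMAD7 was at 15.1 and 16.2 against 6.82, 9.07 and 9.63 TPM. HAMP was at 5.18 and 0 TPM against 0 in mono-culture, and the groups of SMAD6 and BAMBI overlapped.

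Without the block, other genes of iron handling lay close to the background. Of 13 members tested, 6 were higher and 7 lower, with a median of -0.03 and 0 called. With the block 1 of the 13 was called higher (FTL) and 2 lower (TF and CP), against 1.65% and 2.57% of all genes. FTL, the ferritin light chain, was at 40213, 38441 and 43646 TPM in co-cultured and 30942, 30104 and 35339 TPM in mono-cultured cells. Its groups did not overlap, and its log2 difference was 0.35 ± 0.12 (SE). FTH1, the heavy chain, differed by 0.13 ± 0.14, and both genes have many processed pseudogenes that can share reads. TF, the serum iron carrier transferrin, was at 5680, 7263 and 5823 TPM against 6802, 8767 and 7265 TPM (log2 difference -0.28 ± 0.12 SE), lower within each replicate number although the groups overlapped.

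STAT3 is the second known input to HAMP, and its targets were mixed. Of 12 tested genes of the acute phase and STAT3 list, 1 was called higher and 2 lower, with a median of -0.09. SOCS3, the STAT3 feedback inhibitor, was at 2.42, 4.55 and 2.56 TPM in co-cultured and 0.68, 1.38 and 1.78 TPM in mono-cultured cells, a log2 difference of 0.87 ± 0.27 (SE; adjusted p = 0.578). CRP was listed at 0 in all 6 libraries and was not tested. SAA1, SAA2 and LBP reached at most 0.22, 0.23 and 0.62 TPM and were not tested either. The part of STAT3 in the HAMP level was not tested. The 2 genes called lower encode fibrinogen chains. FGA was at 1605, 1556 and 999 TPM against 1677, 2046 and 2109 TPM (log2 difference -0.51 ± 0.16 SE). FGG was at 3266, 3274 and 2733 TPM against 3508, 4531 and 5106 TPM (log2 difference -0.49 ± 0.13 SE), and FGB joined them among the called genes with the block.

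Transcripts of secreted liver proteins were mostly lower in co-cultured cells, by small amounts. Of 14 members, 13 had a lower value, with a median of -0.25. Of these, 1 was called lower without the block and 6 with it, and 0 were called higher in either fit. APOC3, an inhibitor of lipoprotein lipase, was at 296, 332 and 231 TPM in co-cultured and 376, 473 and 436 TPM in mono-cultured cells, with a log2 difference of -0.59 ± 0.15 (SE; adjusted p = 0.549). The 5 others called with the block were TTR (thyroxine carrier), APOA1 and APOA2 (the main proteins of high-density lipoprotein), VTN (vitronectin) and AMBP (precursor of alpha-1-microglobulin). APOA1 was at 8490, 9544 and 6591 TPM against 10236, 12673 and 9713 TPM (log2 difference -0.41 ± 0.15 SE, with an adjusted p of 0.616 that became 0.147 with the block). The 2 groups of APOA1 did not overlap. AMBP was at 3541, 3717 and 4019 TPM against 4031, 4792 and 5068 TPM.

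ALB, the gene of serum albumin, was at 30135, 31170 and 20460 TPM in co-cultured and 33449, 33859 and 25169 TPM in mono-cultured cells, a log2 difference of -0.19 (95% interval -0.59 to 0.21). It was lower within each replicate number, but the groups overlapped and it was not called in either fit. The largest difference the interval allows is a decrease of 0.59 on the log2 scale. The 14 genes listed as HepG2 markers, 10 of them secreted proteins of the list above and several of them also high in Caco-2 cells, were all lower, with a median of -0.29, 1 called without and 7 with the block. In bulk libraries, fewer cells that make these proteins and less RNA per cell cannot be told apart, and TPM are shares, so a rise elsewhere also lowers them. Under quantile normalization, which forces 1 distribution on all libraries, the medians were -0.12 for secreted proteins and -0.15 for HepG2 markers, of which 12 of 14 were then lower.

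**Figure D3:**
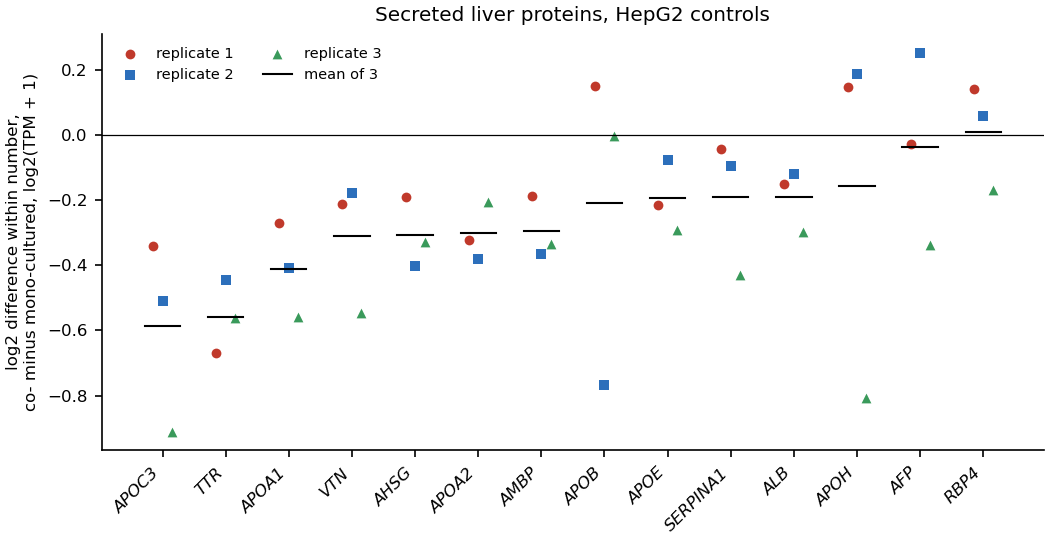
Log2 differences between co-cultured and mono-cultured control HepG2 cells within each replicate number, on log2(TPM + 1), for the 14 secreted liver proteins, where points are the 3 same-numbered pairs and bars their mean. APOC3, TTR and APOA1 lie below zero in all 3 pairs, while AFP and RBP4 straddle it.

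Genes of bile acid handling were lower in most cases. Of 12 tested members of the bile acid and FGF19 list, 9 were lower, with a median of -0.21, 1 called lower and 0 higher. KLB, the co-receptor through which hepatocytes sense the gut hormone FGF19, was at 42.3, 45.9 and 40.9 TPM in co-cultured and 55.8, 66.1 and 66.1 TPM in mono-cultured cells. The groups did not overlap, and the log2 difference was -0.53 ± 0.17 (SE; adjusted p = 0.587). With the block CYP8B1, which sets the share of cholic acid, and NR0B2, a repressor of bile acid synthesis, were called lower too. NR0B2 ranged from 59.5 to 219 TPM in co-cultured and from 84.3 to 388 TPM in mono-cultured cells, and it was lower within each number (log2 difference -0.54, SE 0.70 without and 0.14 with the block).

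Lipid genes had few calls. Of 20 cholesterol synthesis genes 17 were lower, with a median of -0.13 and 0 called. With the block 2 were called lower. These were HMGCS1, which makes HMG-CoA, and MSMO1, a sterol oxidase late in the pathway. HMGCS1 was at 112, 118 and 105 TPM in co-cultured and 208, 181 and 140 TPM in mono-cultured cells, without overlap (log2 difference -0.63 ± 0.22 SE). FDFT1, which makes squalene and is among the most abundant members, differed by -0.20 ± 0.34 (log2, SE). Within replicate number 3, 14 of the 20 were higher in co-cultured cells, against 1 in each of the other two numbers.

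The 13 tested genes of fatty acid oxidation and PPARA signalling had a median of -0.23 and 0 called. With the block 1 was called higher, PLIN2, and 3 were called lower, among them CREB3L3 (a lipid-responsive transcription factor) and ACOT1 (an acyl-CoA thioesterase with a near-identical paralog). PLIN2, which coats lipid droplets, went the other way: 434, 435 and 627 TPM in co-cultured against 313, 287 and 419 TPM in mono-cultured cells. Its groups did not overlap, and its log2 difference was 0.55 ± 0.20 (SE, with an adjusted p of 0.616 that became 0.131 with the block). ACADVL, the most abundant oxidation enzyme listed, differed by -0.05 ± 0.11.

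Of 12 fatty acid synthesis genes, 7 were higher and 5 lower, with a median of 0.05 and 0 called. SCD and ACLY, the most abundant members, differed by -0.01 ± 0.20 and 0.04 ± 0.25 (log2, SE). With the block SREBF1, the lipogenic transcription factor, was called higher and PNPLA3, one of its targets, lower. Of 10 tested drug metabolism genes 7 were lower, with a median of -0.24 and 0 called in either fit.

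All 24 cell cycle genes had a higher mean log2 value in co-cultured cells, with a median of 0.36 and differences from 0.01 to 0.65. Of them, 1 was called higher without the block and 2 with it. Over all genes tested, 46.3% were higher, 0.708% were called higher without the block and 1.65% with it. MCM3, a subunit of the replicative helicase, was at 213, 239 and 237 TPM in co-cultured and 145, 144 and 183 TPM in mono-cultured cells (log2 difference 0.55 ± 0.15 SE; adjusted p = 0.557). MCM5, of the same helicase, was called with the block, at 70.8, 80.5 and 64.0 TPM against 52.5, 46.6 and 44.2 TPM. The groups did not overlap for 9 of the 24, against 7.45% of all genes that were higher without overlap. These 9 were genes of DNA replication and of entry into it (TYMS, PCNA, E2F1, MCM2, MCM3, MCM4, MCM5, MCM7 and RRM2), named here after their values were seen. The median of all 24 was 0.40, 0.47 and 0.11 within replicate numbers 1, 2 and 3, with 24, 22 and 19 of the 24 higher. Under quantile normalization 22 of the 24 stayed higher.

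The 12 NRF2 targets were also higher in every case, with a median of 0.28 and 1 called. AKR1B10, an aldo-keto reductase, was at 769, 592 and 603 TPM in co-cultured and 416, 346 and 342 TPM in mono-cultured cells, without overlap (log2 difference 0.82 ± 0.21 SE; adjusted p = 0.549). With the block AKR1C1 was called too, at 2156, 1895 and 2314 TPM against 1488, 1168 and 2122 TPM, and both enzymes have close paralogs that can share reads. Of 16 genes of the unfolded protein and integrated stress response 11 were higher, with a median of 0.19. XBP1, a transcription factor of that response, was called higher at 895, 911 and 827 TPM against 695, 733 and 630 TPM (log2 difference 0.36 ± 0.11 SE). With the block CHAC1, a glutathione-degrading enzyme induced by ATF4, was called as well.

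Of 19 hypoxia and glycolysis genes 14 were higher, with a median of 0.18 and 0 called. The 2 most abundant enzymes were GAPDH and ENO1, with log2 differences of 0.15 ± 0.10 and 0.33 ± 0.11 (SE). ENO1 was called higher with the block, at 2783, 2621 and 2651 TPM against 2176, 1999 and 2220 TPM. NDRG1, a stress-induced gene of the same list, was called lower with the block, at 14.0, 7.14 and 19.2 TPM against 24.3, 24.9 and 30.0 TPM. The list thus held genes that differed in opposite directions.

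**Figure D4:**
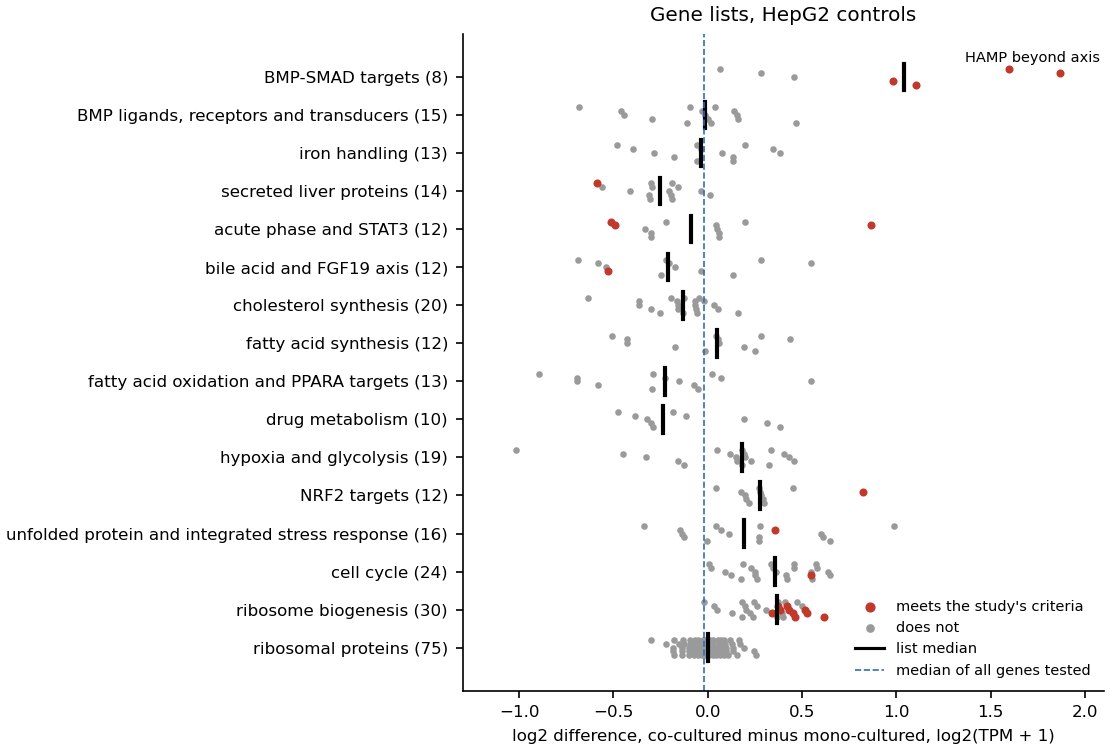
Log2 differences between co-cultured and mono-cultured control HepG2 cells, on log2(TPM + 1), for the tested members of 16 gene lists (number tested in brackets). Red points were called, black bars are list medians and the dashed line is the median of all genes tested. BMP-SMAD targets lie farthest right, with HAMP at 5.54 beyond the axis, and secreted liver proteins lie left of the line.

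The remaining lists had few called genes or none. Among 75 ribosomal proteins 39 were higher, with a median of 0.00, and among 28 respiratory chain subunits 15 were higher, with a median of 0.02, and neither list had a called gene. The 12 p53 targets, 12 heat shock genes, 8 tested NF-kB targets and 7 tested TGF-beta targets had 0 called genes in both fits and medians of 0.12, 0.11, 0.06 and 0.18. The 14 immediate-early genes and 10 Wnt feedback targets had 0 called genes without the block and 1 called higher each with it (FOSL1 and NKD1). Of 7 tested metallothioneins 6 were lower, with a median of -0.26 and 0 called, and their median was -0.96, -0.22 and 0.42 within replicate numbers 1, 2 and 3. Of 20 tested genes of the cytoskeleton, adhesion and extracellular matrix, KRT8, a keratin of simple epithelia, was the 1 called, higher by 0.42 ± 0.11 (log2, SE). Fibroblast and blood or endothelial markers had 3 tested members each and 0 called. COL1A2, COL3A1, DCN and LUM, fibroblast markers, were at 1.28 to 2.15 TPM in mono-cultured replicate 3 and at most 0.30 TPM in the other 5 control libraries. MALAT1 and NEAT1, nuclear RNAs that vary with RNA quality, had a median log2 difference of -0.39, without a call. Their median was 0.42 within replicate number 1, where both were higher, and -0.80 and -0.81 within numbers 2 and 3. ISX, a homeobox gene on the Caco-2 list that HepG2 cells also transcribe, was lower in co-cultured cells, at 2.47, 2.99 and 2.16 TPM against 5.52, 7.22 and 4.07 TPM.

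Outside the lists, the called genes of largest difference with at least 5 TPM and no overlap included 5 more that were higher. PAQR8, a membrane progestin receptor, was at 19.2, 22.7 and 28.2 TPM in co-cultured and 11.1, 9.53 and 13.4 TPM in mono-cultured cells (log2 difference 0.98 ± 0.19 SE; adjusted p = 0.417, and 0.0322 with the block). GATA2, a zinc-finger transcription factor, was at 15.9, 21.6 and 15.6 TPM against 8.79, 7.09 and 9.07 TPM (log2 difference 1.00 ± 0.23 SE; adjusted p = 0.549). The other three were AC040162.1, which overlaps 3 protein-coding genes, and the pseudogenes IKBKGP1 and AL139156.2, all with differences of 0.98 to 1.72. Reads of overlapping genes and gene copies may not be told apart, so these are uncertain.

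The 10 lower genes chosen in the same way were led by AL390198.2, a pseudogene whose level is uncertain for the same reason. ACSM3, a mitochondrial medium-chain acyl-CoA synthetase whose gene overlaps ERI2, THUMPD1 and ACSM1, was at 71.7, 62.3 and 51.2 TPM in co-cultured and 179, 172 and 133 TPM in mono-cultured cells. All 3 co-cultured libraries lay below the lowest mono-cultured one, and the log2 difference was -1.37 ± 0.20 (SE; 95% interval -1.81 to -0.93; adjusted p = 0.0918, and 0.0798 with the block). PLA2G4C, a cytosolic phospholipase A2, was at 1.71, 0.79 and 0.98 TPM against 6.34, 7.28 and 2.82 TPM (log2 difference -1.53 ± 0.31 SE; adjusted p = 0.549).

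ENPP2, which encodes autotaxin, the enzyme that makes lysophosphatidic acid, was at 3.26, 4.63 and 3.02 TPM in co-cultured and 8.51, 12.1 and 6.68 TPM in mono-cultured cells. SLC22A7, an organic anion transporter of hepatocytes, was at 3.43, 2.88 and 3.36 TPM against 5.80, 9.88 and 6.90 TPM. TFF3, a trefoil peptide, was at 4.37, 8.40 and 10.8 TPM against 12.6, 15.6 and 26.7 TPM. Their log2 differences were -1.10 ± 0.24, -0.99 ± 0.26 and -1.13 ± 0.33 (SE). MMP11 (a matrix metalloproteinase), PIK3IP1 (an inhibitor of PI3 kinase), HIST1H2BL (a histone gene of a multigene family) and AC087482.1 (a long noncoding RNA) differed by -1.31, -1.17, -1.32 and -1.13. CCDC142, which passed the adjusted threshold with the block, was at 15.2, 18.0 and 9.77 TPM against 26.6, 34.7 and 17.6 TPM. Its groups overlapped, but it was lower by a similar ratio within each replicate number (log2 difference -0.82, SE 0.31 without and 0.10 with the block).

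The same culture contrast in FFAs-treated cells used 6 other libraries, 3 per group, in the same fit. It had 65 genes called higher (0.469%) and 97 lower (0.700%). Of the 232 genes called in controls, 214 (92.2%) had the same direction with FFAs, against 68.7% of all genes tested. Both comparisons called 56 genes in the same direction, 22 higher and 34 lower, which is 24.1% of the control list and 34.6% of the 162 genes called with FFAs. All 5 called BMP-SMAD targets were among them, with log2 differences with FFAs of 4.44 (HAMP), 1.89 (ID1), 1.42 (ID3), 0.74 (ID2) and 0.79 (SMAD7).

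HAMP with FFAs was at 15.4, 136 and 45.9 TPM in co-cultured cells, and in mono-cultured cells it was at 0.61 and 5.43 TPM in replicates 1 and 3 and listed at 0 in replicate 2. The co-cultured libraries were again above the mono-cultured ones but spread more widely than in controls. The difference of the 2 culture contrasts was 1.10 on the log2 scale (95% interval -1.20 to 3.41), which leaves a wide range. ACSM3 was also called in both comparisons, at 72.5, 59.5 and 107 TPM against 171, 168 and 189 TPM with FFAs. SLC22A7, ENPP2, TFF3, APOC3 and KLB were lower in both comparisons, with log2 differences with FFAs of -1.41, -1.05, -1.05, -0.86 and -0.65.

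Some control differences were small with FFAs, but no gene's culture contrast differed between treatments at an adjusted p of 0.05 (limma's interaction test, 157 genes at an unadjusted p under 0.05, smallest adjusted p 1). PLA2G4C differed by -0.33 with FFAs (difference between treatments -1.20, 95% interval -2.16 to -0.23) and HIST1H2BL by 0.07 (difference between treatments -1.40, 95% interval -2.47 to -0.32). The cell cycle list had a median of 0.08 with FFAs, with 17 of 24 higher and 0 called, and its members' interactions did not reach an unadjusted p of 0.05. The secreted liver proteins kept a median of -0.22, with 2 called lower, and the NRF2 targets a median of 0.21, with 1 called higher.

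**Figure D5:**
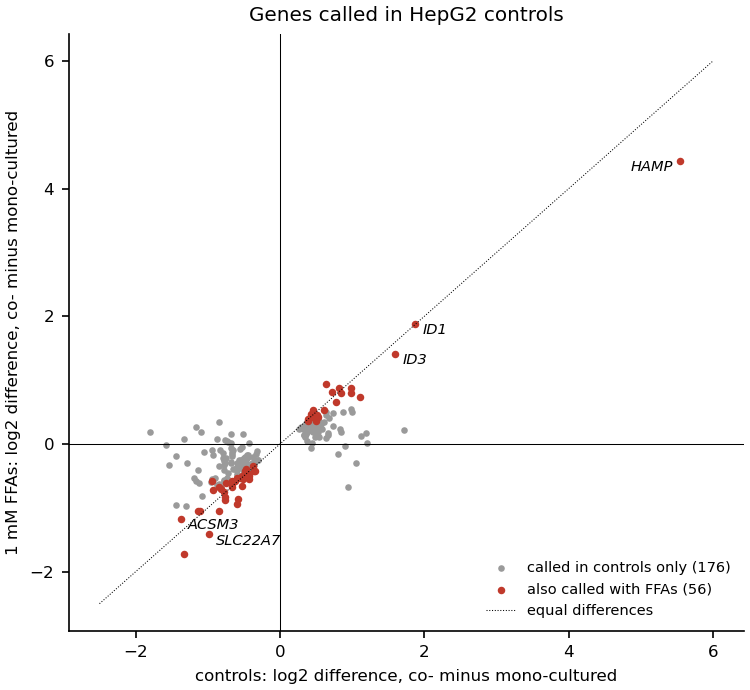
Log2 differences between co-cultured and mono-cultured HepG2 cells in controls (x axis) and with 1 mM FFAs (y axis), on log2(TPM + 1), for the 232 genes called in controls; red points were called with FFAs too and the dotted line marks equal differences. HAMP, ID1 and ID3 lie far from the origin in both comparisons.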

How the data were processed

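mRNA-seq libraries were made from total RNA with the SMART-Seq v4 kit and sequenced on a NovaSeq sequencer. The methods credit these steps to Takara Bio. Per the methods and the submitters' processing notes, reads on rRNA, tRNA and the mitochondrial genome were removed with Bowtie2 2.1.0, STAR 2.7.1a placed the rest on GRCh38 with the Ensembl 98 annotation, and RSEM 1.3.0 gave TPM. The deposited values are TPM per gene, 1 file per library and 60564 genes each, with no counts, so depth is unknown and no counting error is given. Whether counting used strand is not given in the sources used here, so overlapping genes are uncertain.

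Values were analysed as log2(TPM + 1) with limma 3.58.1 in R 4.3.3 (eBayes with a trend), all 12 HepG2 libraries in 1 fit of 4 group means, for genes whose mean reached 1 TPM in either control group, with Benjamini-Hochberg adjustment at 0.05 over 13849 genes. The test without the block was run on simulated data with independent noise in each library. The fits with the block were not checked in this way. The study's own test for mono- against co-culture, DESeq2, needs counts and was not used here; its limits of p under 0.01 and 1.2-fold were applied to limma's values without its limit on reads. Summaries and figures used Python 3.11.15, numpy 2.4.6, pandas 2.3.3 and matplotlib 3.10.9. Promoter windows came from RefSeq (GRCh38.p14) and gene positions from GENCODE v44.

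The members and the gene lists were chosen with earlier results of these data known. Named genes were those past the adjusted threshold; where fewer than 10 a direction passed, the 10 of largest difference in each direction that were called, did not overlap and reached 5 TPM; from each list the called members or else the 2 of highest level; and HAMP, ID1, ID2, ID3, SMAD7 and ALB. Lists given by counts alone have no uncalled member named. Results of a few genes are not reported here. Members called with the block, MEP1A, ligands in Caco-2 cells and others were named after their values were seen.

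Replicate numbers come from the labels. After removal of group means, same-numbered co-cultured and mono-cultured control libraries correlated across genes at 0.108, 0.163 and 0.468, and same-numbered FFAs-treated ones at 0.567, 0.361 and 0.647, so the numbers were taken to pair the libraries. Co-cultured replicate 1 correlated more with mono-cultured replicate 2 (0.199). The block adds the number as a term across all 12 libraries, control and FFAs-treated. Between these treatments, same-numbered libraries correlated at 0.026 to 0.205 for number 1 and 0.095 to 0.331 for number 2. For number 3 they correlated at 0.479 to 0.53, so the shared term rests mainly on number 3.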

Additional observations from a re-analysis of the deposited data

How the results depend on the processing

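The settings varied were the pseudocount (0.1), scaling (median-of-ratios or quantile), no filter, a minimum of 5 TPM, protein-coding genes, limma without the trend, only the 6 libraries compared, the replicate block, and leaving out each control library. A block within each treatment, a block with 6 libraries and leaving out both control libraries numbered 3 were added after seeing the data.

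The 0 genes at an adjusted p under 0.05 in controls became 1 without a filter, 1 with only the 6 libraries compared, 6 with the replicate block, 146 with the block within each treatment (64 higher and 82 lower, among them all 6 of the block's genes) and 5 with the block and only the 6 libraries; leaving out 1 library gave 0 to 1. The 232 called genes became 585 with the replicate block, 963 with the block within each treatment and 613 with the block and only the 6 libraries; leaving out 1 library gave 90 to 402. With FFAs, 0 genes became 1 with the replicate block and 130 with the block within each treatment. For the difference between treatments, 0 became 1 without a filter. The summed Caco-2 markers differed by -72.8 to 0.112 TPM when 1 library was left out, and an exact permutation within the replicate block gave p = 0.25, its smallest possible value. The cause of these shifts was not tested.

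Of 1468 values of 82 named genes under the alternatives, 16, of 7 genes, changed direction. Without 1 library, ALB ranged from -0.329 to 0.005, FDFT1 from -0.512 to 0.021, FTH1 from -0.004 to 0.253, NR0B2 from -1.086 to 0.009, SCD from -0.204 to 0.158, ACLY from -0.186 to 0.197 and ACADVL from -0.153 to 0.063. SCD was 0.022 under median-of-ratios scaling, ACLY was -0.005 under quantile normalization, and without both libraries numbered 3 ACLY was -0.034 and ACADVL 0.045. Without both libraries numbered 3, HAMP differed by 5.23, ID1 by 1.76, ID3 by 1.56, ID2 by 0.88 and ACSM3 by -1.38. Of 539 list medians under the alternatives, 14 in 11 lists moved by more than 1 SD between libraries. Depth is unknown, so low genes cannot be given a detection limit.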

Other observations

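A list of 30 ribosome biogenesis genes was drawn up after such genes were seen among the called ones, so it gets no test. Of its members, 29 were higher in co-cultured control HepG2 cells, with a median log2 difference of 0.37, against -0.02 over all genes tested. Without the block 10 were called higher and 0 lower, and with the block 15 were called higher. Over all genes tested, 0.708% were called higher without the block and 1.65% with it. BOP1 and PES1, partners in the complex that matures the large ribosomal subunit, were both called. BOP1 was at 115, 115 and 140 TPM in co-cultured and 80.5, 67.9 and 92.4 TPM in mono-cultured cells, and PES1 was at 121, 120 and 133 TPM against 99.1, 92.3 and 96.5 TPM. The groups of both genes were separate, with log2 differences of 0.62 ± 0.13 and 0.37 ± 0.09 (SE). The other called members were WDR43, RRP9, NOLC1, NOP16, RRP12, NOP14, MYBBP1A and BYSL, with log2 differences from 0.34 to 0.53. With FFAs 29 of the 30 were higher too, with a median of 0.25 and 5 called. The ribosomal proteins themselves had a median of 0.00 in controls and 0.06 with FFAs, with 0 called in either.

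Among the 38 genes called in every fit that left out 1 control library, CIDEB, a lipid droplet protein of hepatocytes that takes part in very-low-density lipoprotein assembly, was at 55.5, 52.1 and 59.2 TPM in co-cultured and 102, 109 and 89.2 TPM in mono-cultured control cells. It was chosen after its values were seen. Its groups did not overlap, and the log2 difference was -0.84 ± 0.16 (SE; adjusted p = 0.417 in limma's test), the opposite direction to PLIN2, another lipid droplet protein. With FFAs the difference of CIDEB was -0.67.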
